A study of Mus musculus with 108 samples.

Results

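The 8 genes Emx1, Emx2, Lhx2, Tbr1, Fezf2, Bcl11b, Neurod6 and Cux2 encode transcription factors of the projection neurons of the forebrain and of the progenitors that give rise to them. They were chosen by symbol, each matched 1 Ensembl gene, and they are 8 of the 53465 genes with expected counts. RNA from 3 regions, the cerebellum (CB), the hippocampus (HIP) and the cortex (CX), was sequenced in wild-type (WT) and heterozygous Cul3+/- mutant mice at E17.5, at P7 and in adults (P35), on a background that the labels spell C56Bl/6N. The mutant mice carry a germline 1 bp frame-shifting insertion in exon 6 of Cul3, made with CRISPR/Cas9 and bred from 1 founder, so that every cell type carries it. No other allele or agent is named for either genotype. There were 6 WT and 6 mutant mice at each period, each giving 1 library per region. The genotypes of 2 adult mice differ between the labels and the quality table of the study, and their 6 libraries were left out, so that 102 of 108 libraries from 34 mice were used, with 5 mice per genotype in adults.

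Projection neurons are the glutamatergic neurons of cortex and hippocampus that send long axons, and their type is set by transcription factors acting first in dividing progenitors and then in young neurons. Emx1, Emx2 and Lhx2 are homeobox genes that pattern the dorsal telencephalon, where these progenitors lie, and Emx2 is needed for growth of the hippocampus. Tbr1 and Fezf2 specify deep-layer cortical neurons, Tbr1 those that project to the thalamus and Fezf2 those that project below the cerebrum. Bcl11b, also called Ctip2, acts with Fezf2 in subcerebral neurons and is also a marker of hippocampal neurons and of striatal medium spiny neurons. Neurod6 is a basic helix-loop-helix gene of young pyramidal neurons in cortex and hippocampus, and Cux2 is a cut homeobox gene known as a marker of the upper cortical layers. The question asked of the 8 genes was how their mRNA differed between regions and periods of WT brain and between mutant and WT mice.

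The genes lie at separate loci, given here on GRCm38 from GENCODE vM21. Emx1 is at chr6:85187438-85204462 on the plus strand, Emx2 at chr19:59458372-59465357 on the plus strand and Lhx2 at chr2:38339281-38369733 on the plus strand. Tbr1 is at chr2:61802930-61814114 on the plus strand, Fezf2 at chr14:12342094-12348189 on the minus strand and Bcl11b at chr12:107910403-108003602 on the minus strand. Neurod6 is at chr6:55677822-55681263 on the minus strand and Cux2 at chr5:121856366-122050102 on the minus strand. The antisense gene Emx2os overlaps 264 exonic bases of Emx2, and antisense genes in Lhx2 and Cux2 overlap introns only. The strand setting used in counting is not given in the sources used here, so reads in the shared bases of Emx2 and Emx2os may have been counted to either.

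RefSeq (GRCm38.p6) gives 10 windows of 250 bases before a start of the 8 genes, with 2 each for Lhx2 and Cux2. The windows of Neurod6 (chr6:55681264-55681513, minus strand) and the first of Lhx2 (chr2:38339031-38339280, plus strand) are printed because they are the only ones of the 10 with no base in an annotated exon, and because these genes differed in course, Lhx2 falling from E17.5 to P7 in both forebrain regions and Neurod6 over that interval in CX, with no called change in HIP. Capitals mark CANNTG, the letters that basic helix-loop-helix factors are known to bind, and GGGCGG, a letter run of GC boxes, on either strand.
Neurod6: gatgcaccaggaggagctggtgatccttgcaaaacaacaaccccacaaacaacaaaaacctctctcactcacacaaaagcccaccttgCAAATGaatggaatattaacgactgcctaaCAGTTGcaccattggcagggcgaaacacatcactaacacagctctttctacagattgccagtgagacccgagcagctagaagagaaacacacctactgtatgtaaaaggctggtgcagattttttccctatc
Lhx2: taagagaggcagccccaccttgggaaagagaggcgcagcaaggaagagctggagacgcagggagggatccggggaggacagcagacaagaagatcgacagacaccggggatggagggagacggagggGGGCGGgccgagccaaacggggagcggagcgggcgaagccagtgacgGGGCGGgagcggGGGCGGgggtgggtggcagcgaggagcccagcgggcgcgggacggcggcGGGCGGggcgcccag
The Neurod6 window held 46% G and C and 2 CANNTG matches without GGGCGG, and the Lhx2 window held 72.8% and 4 GGGCGG matches without CANNTG. Over all 32851 RefSeq windows of this length the median was 52.4%, 66.2% held CANNTG and 32.7% held GGGCGG. GC content of the other windows ran from 44.8% for Bcl11b and 45.2% for Tbr1 through 61.2% for Fezf2 and 67.2% for Emx2 to 75.6% for Emx1, with 68.4% in the second Lhx2 window and 80% and 55.2% in the windows of Cux2. TAATTA, a core of homeodomain sites, was found only in the Tbr1 window, at 2 places, and in 4.84% of all windows. TATAAA was in 12.4% and CCAAT in 33.8% of all windows.

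Library totals ran from 15126093 to 44411259 counts, with a median of 32663939. Cul3, the targeted gene, stood at 50.4% to 61.3% of the WT mean in mutant libraries and did not overlap between genotypes in 9 of 9 datasets. The mean log2 CPM of 11 cerebellar granule cell markers was 4.69 to 7.16 in CB libraries and at most 2.18 in CX and HIP, as the region labels state. The libraries of a group came from separately named mice, whose sex the labels do not give. The study states equal numbers of males and females per genotype at each period and fitted sex, which the main genotype fit here did not.

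The 4 embryos whose names carry the prefix S3, 2 of each genotype, stood apart from the other 8 embryos in several of the genes. In CX, Emx1 was 44.3 to 65.8 CPM (counts scaled to library size) in the S3 embryos against 22.1 to 34.6 in the others, and in HIP 70.7 to 95 against 30.7 to 51.7, a ratio of means of 2.01 and 2.02. Fezf2 was 107.8 to 127.7 against 56 to 82.4 CPM in CX and 65.2 to 79.2 against 40.2 to 61.1 in HIP. Lhx2 was 155 to 199.9 against 92.1 to 122.3 CPM in CX and 226.3 to 276 against 143.6 to 199.1 in HIP. These 3 genes were higher in the S3 embryos without overlap in both regions. How many of all genes were likewise without overlap was not counted. In CB, Bcl11b (27.1 to 32.6 against 16 to 24.2) and Cux2 (70.4 to 80.5 against 57 to 69.5) were also higher without overlap. Cux2, the upper-layer marker, went the other way in HIP, at 25.7 to 42.5 against 43.9 to 57.4 CPM, and overlapped in CX at 128.8 to 174.4 against 164.7 to 201.1. Marker scores, the mean log2 CPM of a list, moved with the prefix. The 10 interneuron markers scored 3.15 to 3.48 in the S3 embryos against 3.53 to 4.46 in CX, and 1.72 to 2.70 against 2.91 to 4.34 in HIP. The 8 astrocyte markers scored 2.89 to 3.06 against 3.49 to 4.00 in CX and 3.53 to 4.16 against 4.54 to 5.16 in HIP. Of the other marker lists, Cajal-Retzius markers in CX and striatal markers in HIP also did not overlap, each in 1 of the 2 regions. What the prefix stands for is not given, and its part in the levels was not tested. Values without these embryos, an alternative chosen after seeing the data, are given beside the changes after E17.5, and elsewhere where a called value moved by over 1.5 times.

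**Figure D1:**
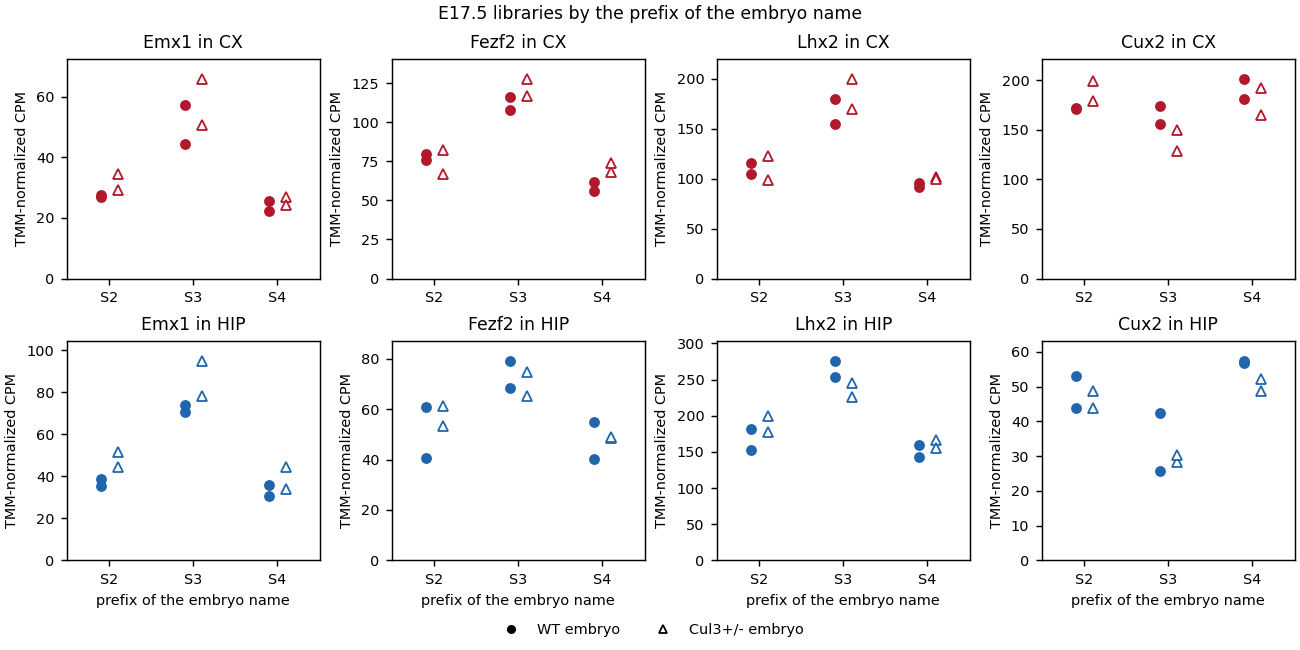
TMM-normalized CPM of Emx1, Fezf2, Lhx2 and Cux2 in each E17.5 CX (upper row) and HIP (lower row) library, by the prefix of the embryo name, with WT as filled circles and Cul3+/- as open triangles. Emx1 in CX lay between 44.3 and 65.8 in the 4 S3 embryos and between 22.1 and 34.6 in the other 8, with both genotypes in each range.

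The 8 genes, chosen as forebrain genes, were each higher in CX than in CB at every period, and 7 of 8, all but Cux2, were higher in HIP than in CB. Levels are CPM normalized by the trimmed mean of M values (TMM), given as mean ± SD over 6 WT mice at E17.5 and P7 and 5 in adults. Emx1 stood at 33.9 ± 13.8 in CX and 47.5 ± 19.4 in HIP at E17.5, with 0 to 0.0768 in CB. Emx2 stood at 9.80 ± 2.78 in CX and 39.4 ± 11.7 in HIP, with 0 to 0.0562 in CB. Fezf2 stood at 83.0 ± 24.3 in CX and 57.3 ± 15.5 in HIP, with 0 to 0.0843 in CB. These 3 genes were thus close to 0 in CB, and the largest count in any WT CB library of any period was 3. Their forebrain to CB ratios come from summed counts over summed library sizes, with exact 95% intervals that cover counting error only. For Emx1 the WT CX libraries at E17.5 held 6067 counts and the CB libraries 7, a ratio of 1030 (501 to 2570). For Fezf2 they held 14953 and 8 counts, a ratio of 2230 (1130 to 5160). Emx2 gave 1749 and 3 counts in CX and CB at E17.5, a ratio of 695 (237 to 3370), and in HIP 6107 counts, a ratio of 2730 (935 to 13300). At P7 Emx2 had 1 count in all WT CB libraries together, and in adults again 1. In adults the ratio of CX to CB was 303 (153 to 702) for Emx1 and 2260 (627 to 18700) for Fezf2.

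The other 5 genes had measurable levels in CB. Lhx2 was 124 ± 35.6 in CX, 194.7 ± 56.3 in HIP and 1.64 ± 0.596 in CB at E17.5, and Tbr1 was 124.5 ± 50.1, 45.8 ± 23.2 and 3.42 ± 1.3. Bcl11b was 251.9 ± 67.8 in CX, 129 ± 51.4 in HIP and 24.4 ± 3.40 in CB. Neurod6 was the most abundant, at 628 ± 80.2 in CX, 310.3 ± 72.2 in HIP and 30.5 ± 2.98 in CB. Cux2 was 175.8 ± 14.8 in CX, 46.6 ± 12 in HIP and 66.7 ± 5.62 in CB, so that its HIP libraries, at 25.7 to 57.4, lay below all its CB libraries, at 62.2 to 76.5.

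**Figure D2:**
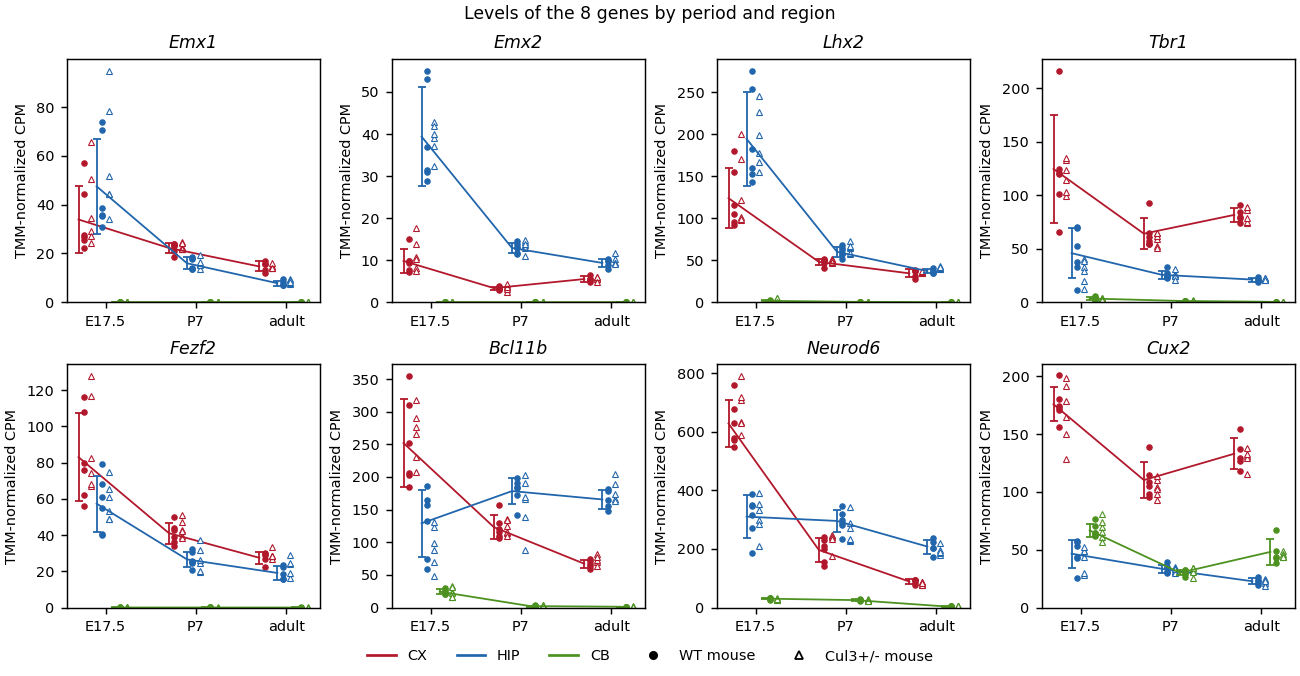
TMM-normalized CPM of the 8 genes by period in CX, HIP and CB, with 1 point per mouse (filled circles WT, open triangles Cul3+/-) and lines and bars for the WT mean and SD. Neurod6 in CX fell from a WT mean of 628 at E17.5 to 88.8 in adults, while in HIP it ran from 310.3 to 208.1.

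In edgeR's quasi-likelihood test with mouse as a block and a Benjamini-Hochberg adjusted p threshold of 0.1, 8 of 8 genes were called higher in CX than in CB at E17.5, P7 and P35, beside 30.3%, 38.8% and 36.5% of all genes tested and 31.3%, 44.1% and 38.9% called lower. The median log2 fold change of the 8 was 5.70, 6.30 and 7.99, beside 0.01, -0.06 and -0.04 over all genes. In adults that median lies between Tbr1 and Emx1, and the value of Emx1 rests on 8 counts in CB. Each of the 8 was without overlap between the WT libraries of CX and CB, but the share of all genes without overlap was not counted. In HIP against CB, 7 of 8 were called higher at each period, beside 24.5%, 36.0% and 36.8% of all genes higher and 25.0%, 42.3% and 38.3% lower. Cux2 was the exception. Its log2 fold change of HIP over CB was -0.53 ± 0.14 (SE; adjusted p = 0.00655, edgeR) at E17.5, 0.10 ± 0.09 (adjusted p = 0.327) at P7 and -1.07 ± 0.09 (adjusted p = 3.4e-07) in adults. Without the S3 embryos the E17.5 value was -0.25 (adjusted p = 0.0404), and without the WT mouse of P7 CX replicate 4 the P7 value was 0.17 (adjusted p = 0.0401). Among the genes with counts in CB, Cux2 also had the smallest step from CB to CX, of 1.37, 1.83 and 1.5 at the 3 periods, and Bcl11b had steps of 3.35, 5.74 and 5.73. In bulk tissue, fewer cells of a type and less RNA per cell cannot be told apart.

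The low CB levels had their own course, and 4 of the 5 genes fell at each step. Bcl11b fell first, from 24.4 at E17.5 to 2.24 ± 0.642 at P7 and 1.28 ± 0.174 in adults, with log2 fold changes of -3.47 ± 0.16 (adjusted p = 2.52e-10) and -0.83 ± 0.20 (adjusted p = 0.00222). Neurod6 fell late, from 30.5 through 25.4 ± 2.26 to 3.87 ± 0.593, with -0.29 ± 0.07 (adjusted p = 0.00128, and -0.18 with 0.0515 in mutants) and then -2.72 ± 0.11 (adjusted p = 7.26e-11). The 5 adult CB libraries held 3.93, 4.13, 3.09, 3.53 and 4.65 CPM of Neurod6, all below the P7 range of 21.7 to 28.2. Lhx2 fell from 1.64 through 0.404 ± 0.105 to 0.0318 ± 0.0216, where the 5 adult libraries held 5 counts in all, and Tbr1 from 3.42 through 1.16 ± 0.143 to 0.359 ± 0.0793. Cux2 fell from 66.7 to 30.1 ± 2.39 (log2 -1.17 ± 0.07, adjusted p = 1.78e-09) and then rose to 48.2 ± 11.1 (0.66 ± 0.12, adjusted p = 0.000227). Its adult CB libraries held 43.9, 42.7, 66.9, 48.8 and 38.4 CPM, of which the third lay well above the rest, and all lay above the P7 range of 26.2 to 32.6. From E17.5 to P7 thus 5 of 5 tested genes were called lower in CB, beside 38.4% of all genes lower and 37.1% higher. From P7 to P35, 4 were called lower and 1 higher, beside 40.2% lower and 39.7% higher. Emx1, Emx2 and Fezf2 were too low to be tested there. The score of the 11 granule cell markers in WT CB went from a mean of 5.17 to 6.94 and 6.96 over the 3 periods, and its part in these changes was not tested.

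**Figure D3:**
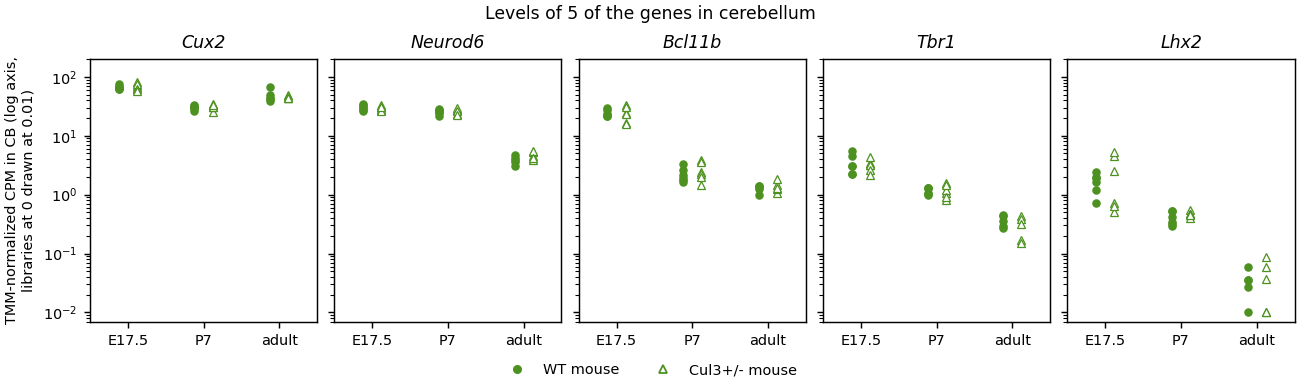
TMM-normalized CPM of Cux2, Neurod6, Bcl11b, Tbr1 and Lhx2 in each CB library by period on a log axis, WT as filled circles and Cul3+/- as open triangles, with libraries at 0 drawn at 0.01. Bcl11b in WT mice dropped between E17.5 (21.4 to 29.9) and P7 (1.63 to 3.34), and Neurod6 between P7 (21.7 to 28.2) and the adult period (3.09 to 4.65).

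Between CX and HIP the 8 genes divided, and the division changed with age for 3 of them. Tbr1, Fezf2 and Cux2 were higher in CX at all 3 periods, Emx2 was higher in HIP at all 3, and Emx1, Neurod6 and Bcl11b changed sides after E17.5. At E17.5, 5 of 8 genes were called higher in CX and 3 lower, beside 22.3% and 24.2% of all genes. At P7, 4 were called higher and 4 lower, beside 29.2% and 27.8%. In adults, 4 were called higher and 3 lower, beside 25.9% and 25.5%.

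Emx1 was lower in CX than in HIP in 6 of 6 WT embryos, with ratios of 0.626 to 0.774, and higher in CX in 6 of 6 P7 mice, at 1.05 to 1.73, and 5 of 5 adults, at 1.56 to 2.40. The 5 adult CX libraries held 13.1, 16.9, 15.7, 15.7 and 11.9 CPM and the HIP libraries 8.42, 7.03, 9.33, 7.03 and 7.12, without overlap. The log2 fold change of CX over HIP was -0.53 ± 0.12 (adjusted p = 0.00439) at E17.5, 0.50 ± 0.10 (adjusted p = 0.00094) at P7 and 0.93 ± 0.15 (adjusted p = 0.000268) in adults. The E17.5 call rests on the comparison within embryos, since the groups overlapped and the adjusted p was 0.128 with no replicate block.

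Neurod6 and Bcl11b made the opposite switch. Neurod6 was higher in CX in 6 of 6 WT embryos, with ratios of 1.47 to 3.39, and lower in CX in all 6 P7 mice, at 0.448 to 0.855, and all 5 adults, at 0.377 to 0.540. Its adult CX libraries held 84.0, 94.3, 76.8, 93.8 and 95.3 CPM against 222.2, 237, 203.8, 173.8 and 203.8 in HIP. Its log2 fold change of CX over HIP went from 0.99 ± 0.14 (adjusted p = 9.04e-05) to -0.58 ± 0.11 (adjusted p = 0.000682) and -1.21 ± 0.08 (adjusted p = 9.9e-08). For Bcl11b the ratios were 1.09 to 5.25 in embryos, 0.600 to 0.791 at P7 and 0.323 to 0.455 in adults, on the same sides in every WT mouse. Its adult libraries held 58.7, 74.9, 71.7, 64.0 and 66.2 CPM in CX against 181.4, 164.6, 178.3, 148.5 and 155 in HIP. Its log2 fold change went from 0.95 ± 0.24 (adjusted p = 0.00624) to -0.51 ± 0.10 (adjusted p = 0.000807) and -1.28 ± 0.07 (adjusted p = 1.68e-08), and the first was 0.62 (adjusted p = 0.0538) without the S3 embryos. Mutant mice showed the same sides with 1 exception of 6 at P7, the same mouse for both genes, with ratios of 1.53 for Bcl11b and 1.07 for Neurod6. Its HIP library, mutant replicate 1, had a choroid plexus score (8 markers) of 5.72 against -0.75 to 1.76 in the other 11 P7 HIP libraries, and a meningeal score of 6.19 against 4.13 to 5.21. In mutants the P7 value was -0.36 for Bcl11b and not called (adjusted p = 0.141), and -0.19 for Neurod6 (adjusted p = 0.0278). Without that HIP library, an alternative chosen after seeing the data, Bcl11b was called at -0.56 (adjusted p = 0.00585) and Neurod6 at -0.25 (adjusted p = 0.00823). At E17.5 that of Bcl11b was 1.45 (adjusted p = 0.000148).

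Cux2, Tbr1 and Fezf2 were higher in CX at each period, which Bcl11b, the other gene of deep-layer neurons, was not. Cux2 had the widest margin, with a log2 fold change of CX over HIP of 1.89 ± 0.14 (adjusted p = 3.07e-07), 1.73 ± 0.09 (adjusted p = 1.11e-09) and 2.57 ± 0.09 (adjusted p = 8.12e-10). The adult libraries held 118.3, 126.5, 154.1, 136.7 and 129.6 CPM in CX against 20.9, 19.4, 23.7, 26.7 and 23 in HIP. Tbr1 gave 1.49 ± 0.34 (adjusted p = 0.00331), 1.33 ± 0.11 (adjusted p = 1.64e-07) and 1.97 ± 0.08 (adjusted p = 1.21e-09). At E17.5 its WT HIP libraries were spread from 10.9 to 70.7 CPM, and 1 of 6 WT embryos had a CX to HIP ratio below 1, at 0.936. The lowest, HIP replicate 2, had a choroid plexus score (8 markers) of 5.99 against -0.47 to 2.5 in the other 11 E17.5 HIP libraries, and without it the E17.5 value was 1.2 (adjusted p = 0.00469). Fezf2 gave the smallest margin of the 3 genes, at 0.48 ± 0.11 (adjusted p = 0.00345), 0.65 ± 0.10 (adjusted p = 0.000116) and 0.56 ± 0.11 (adjusted p = 0.00136).

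The homeobox genes Emx2 and Lhx2 leaned to HIP. Emx2 gave -2.05 ± 0.15 (adjusted p = 2.54e-07) at E17.5, -1.93 ± 0.10 (adjusted p = 1.27e-09) at P7 and -0.74 ± 0.11 (adjusted p = 0.000184) in adults, and was lower in CX in 17 of 17 WT mice. Its adult libraries held 5.17, 6.55, 5.47, 5.45 and 4.86 CPM in CX against 8.93, 10.4, 7.90, 9.70 and 9.78 in HIP. Emx2os, its antisense neighbour, ran at 14.3 ± 1.36, 7.41 ± 0.803 and 5.96 ± 0.702 CPM in HIP and 2.88 ± 0.701, 1.63 ± 0.370 and 1.69 ± 0.178 in CX. Lhx2 was lower in CX by -0.69 ± 0.15 (adjusted p = 0.00294) at E17.5 and -0.30 ± 0.07 (adjusted p = 0.00223) at P7. In adults its value was -0.10 ± 0.08 and not called (adjusted p = 0.338), with 27.8, 37.3, 38.3, 31.4 and 37.2 CPM in CX against 34.8, 37.6, 40.2, 35.1 and 37.6 in HIP, which overlapped. In adult mutants the value was -0.18 (adjusted p = 0.0233).

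**Figure D4:**
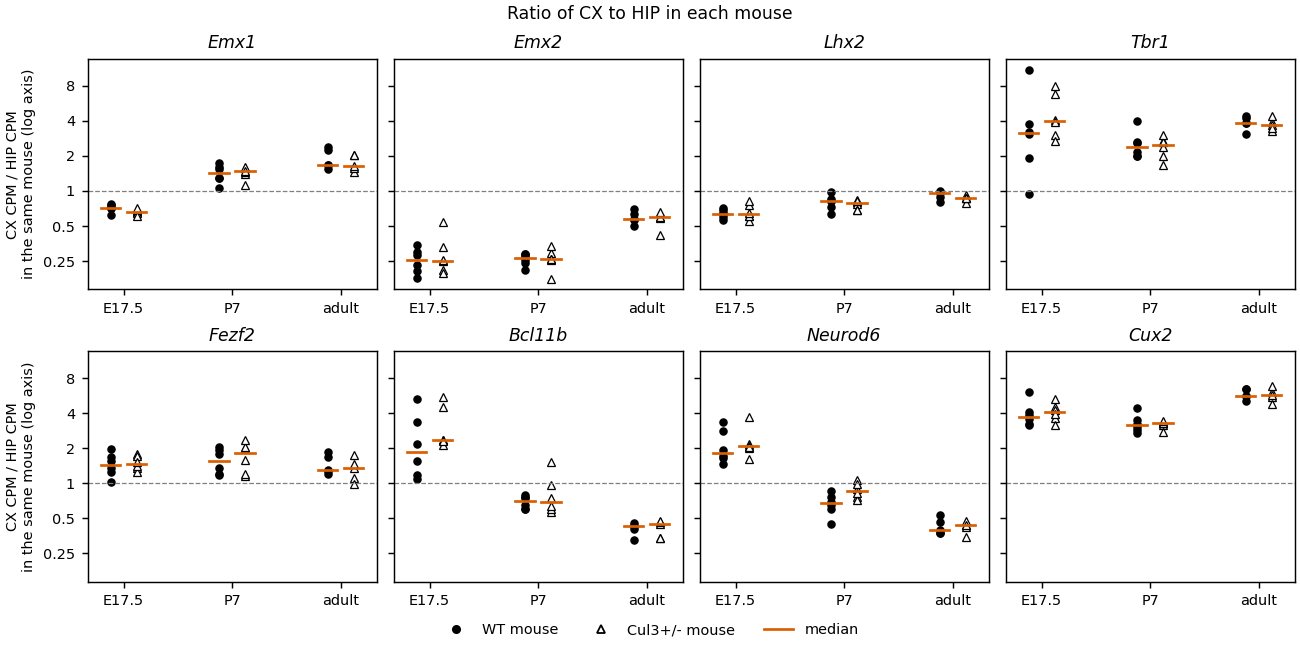
Ratio of CX to HIP CPM within each mouse on a log axis, by period, for the 8 genes, with WT as filled circles, Cul3+/- as open triangles, medians as bars and a dashed line at a ratio of 1. Emx1 crossed the line upwards after E17.5 (WT medians 0.717, 1.42 and 1.68), and Neurod6 (1.84, 0.675 and 0.398) and Bcl11b (1.85, 0.700 and 0.427) crossed it downwards.

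Most of the genes fell after E17.5, in cortex all 8 of them. From E17.5 to P7 in CX, 8 of 8 were called lower, beside 42.0% of all genes lower and 39.5% higher, with a median of -1.08 beside -0.03 over all genes. Neurod6 fell most, from 628 to 196.4 ± 40.3 CPM, with a log2 fold change of -1.74 ± 0.14 (adjusted p = 7.45e-08). Emx2 fell by 1.61 on the log2 scale, to 3.34 ± 0.327, and Lhx2 by 1.43, to 48.0 ± 3.72. Bcl11b, Fezf2 and Tbr1 fell by 1.09, 1.08 and 1.02, to 123.1 ± 18.2, 41.1 ± 5.81 and 64 ± 14.4. P7 WT CX replicate 2 held the highest Bcl11b of its group, 156.7 CPM, and the highest striatal score (14 markers), 3.39, whose part was not tested. With any 1 library left out, the log2 fold change of Bcl11b ran from -1.18 to -0.96. Cux2 fell by 0.73, to 110.3 ± 15.6, and Emx1 by 0.67 ± 0.21 (adjusted p = 0.0102), to 22.2 ± 2.12. The fall of Emx1 was 0.25 (adjusted p = 0.0289) without the S3 embryos, and its E17.5 and P7 ranges overlapped, at 22.1 to 57.3 and 18.6 to 23.9. Without these embryos the other 7 genes were still called lower, and the falls of Bcl11b, Fezf2 and Tbr1 were 0.83, 0.79 and 0.72. From E17.5 to P7 the mean score of 8 astrocyte markers in WT CX rose from 3.49 to 6.54. That of 8 oligodendrocyte markers rose from -0.525 to 2.04 and that of 8 neuronal markers from 7.68 to 8.99. Their part in the falls was not tested.

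In HIP, 6 of 8 were called lower over the same interval, beside 39.3% lower and 37.5% higher, with a median of -1.01. Lhx2 fell by 1.73 ± 0.16 (adjusted p = 6.49e-07), to 60.1 ± 5.84 CPM, Emx2 by 1.64, to 12.9 ± 1.23, and Emx1 by 1.60, to 16 ± 2.41. Fezf2 fell to 26.6 ± 4.23 (adjusted p = 4.36e-05), and Cux2 by 0.51, to 33.5 ± 3.59. Tbr1 fell by 0.88 ± 0.33 (adjusted p = 0.0302), to 25.5 ± 3.91, which was not called with a replicate block (-0.69, adjusted p = 0.11) or in mutants (-0.19, adjusted p = 0.453). Without the S3 embryos the same 6 genes were called, with falls of 1.47 for Lhx2, 1.37 for Emx2, 1.2 for Emx1, 0.94 for Fezf2, 0.80 for Tbr1 and 0.71 for Cux2. Neurod6 went from 310.3 to 295.6 ± 37.4 and was not called (-0.10 ± 0.15, adjusted p = 0.565). It was called without E17.5 WT replicate 6 (-0.21, adjusted p = 0.0812). Bcl11b went from 129 to 178.4 ± 20.3 (0.44 ± 0.24, adjusted p = 0.111). The value for Bcl11b was called in mutants (0.78, adjusted p = 0.00958), with DESeq2 (0.45, adjusted p = 0.0836) and with a replicate block (0.54, adjusted p = 0.0669). It was also called without E17.5 WT replicate 1 (0.58, adjusted p = 0.0364) or 3 (0.51, adjusted p = 0.0856), or P7 replicate 5 (0.50, adjusted p = 0.0927).

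From P7 to the adult period the cortex split. In CX, 3 genes were called higher and 5 lower, beside 35.4% and 37.0% of all genes. Emx2 rose from 3.34 to 5.50 ± 0.639 CPM (log2 0.75 ± 0.10, adjusted p = 1.16e-05), without overlap between 3.01 to 3.78 at P7 and 4.86 to 6.55 in adults. Tbr1 rose from 64 to 81.6 ± 6.62 (0.38 ± 0.12, adjusted p = 0.0092) and Cux2 from 110.3 to 133 ± 13.5 (0.30 ± 0.09, adjusted p = 0.0105), both with overlapping ranges. The adult Tbr1 values were 78.4, 91.2, 84.6, 73.7 and 79.9, of which none lay above the P7 maximum of 92.2. Neurod6 fell by a further 1.12 ± 0.13, to 88.8 ± 8.15, and Bcl11b by 0.85 ± 0.09, to 67.1 ± 6.38. Emx1, Fezf2 and Lhx2 fell by 0.58, 0.55 and 0.45, to 14.7 ± 2.05, 27.5 ± 3.23 and 34.4 ± 4.58. In HIP, 7 of 8 were called lower, beside 37.5% lower and 36.8% higher, and none rose. Emx1 fell by 1.02 ± 0.11 (adjusted p = 9.86e-07), to 7.79 ± 1.05, and Lhx2 by 0.69, to 37.1 ± 2.21. Cux2, Neurod6, Fezf2, Emx2 and Tbr1 fell by 0.55, 0.49, 0.46, 0.45 and 0.26, to 22.7 ± 2.80, 208.1 ± 23.7, 19.1 ± 3.68, 9.33 ± 0.95 and 21.1 ± 1.82. Bcl11b held 165.6 ± 14.3 and was not called (-0.09 ± 0.08, adjusted p = 0.299). It was called without P7 WT replicate 5 (-0.16, adjusted p = 0.0306). The fall of Fezf2 was not called in mutants (-0.29, adjusted p = 0.188). Over this interval the mean score of 8 oligodendrocyte markers rose from 2.04 to 8.02 in WT CX and from 1.94 to 8.38 in WT HIP. That of 8 neuronal markers went from 8.99 to 8.82 in CX and from 8.53 to 8.31 in HIP. The part of these scores in the changes was not tested.

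The test of the difference itself, the CX change minus the HIP change with mouse as a block, called 4 genes from E17.5 to P7 and 6 from P7 to the adult period. In the first interval 2 were higher in CX and 2 lower, beside 17.7% and 20.4% of all genes. Neurod6 gave -1.64 ± 0.20 (adjusted p = 5.01e-05), Bcl11b -1.56 ± 0.32 (adjusted p = 0.00251), Emx1 0.98 ± 0.11 (adjusted p = 1.94e-05) and Lhx2 0.34 ± 0.09 (adjusted p = 0.0133, and 0.312 with no replicate block). Without the S3 embryos Bcl11b gave -1.18, Neurod6 -1.59, Emx1 0.98 and Lhx2 0.36, all called. Fezf2, Emx2, Cux2 and Tbr1 were not called, at 0.12, 0.06, -0.23 and -0.24. In mutants Tbr1 was called at -0.86 (adjusted p = 0.0165) and Cux2 at -0.33 (adjusted p = 0.0299). In the second interval 4 were higher in CX and 2 lower, beside 18.1% and 12.7%. Emx2 gave 1.21 ± 0.12 (adjusted p = 3.1e-06), Cux2 0.86 ± 0.11 (adjusted p = 5.56e-05), Tbr1 0.67 ± 0.15 (adjusted p = 0.00518) and Emx1 0.45 ± 0.15 (adjusted p = 0.0359). Bcl11b gave -0.74 ± 0.10 (adjusted p = 5.18e-05) and Neurod6 -0.59 ± 0.15 (adjusted p = 0.00913), which was -1.0 in mutants (adjusted p = 9.37e-06). Emx1 was no longer called without the adult WT mouse of CX replicate 2 (0.34, adjusted p = 0.119) or that of CX replicate 4 (0.36, adjusted p = 0.105). Lhx2 at 0.23 (adjusted p = 0.115) and Fezf2 at -0.07 were not called. Lhx2 was called in mutants (0.22, adjusted p = 0.0187). It was also called without the WT mouse of P7 CX replicate 4 (0.25, adjusted p = 0.0987) or 5 (0.29, adjusted p = 0.0407), or of adult CX replicate 1 (0.26, adjusted p = 0.0808).

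Levels per kilobase of exon allow an approximate comparison of different genes. The length joined all annotated exons of a gene, whichever isoforms were expressed, so the order of close values is uncertain. Neurod6 was the highest of the 8 in every WT group except adult CB, at 292.1 CPM per kb in E17.5 CX, 144.3 in E17.5 HIP, 41.3 in adult CX and 96.8 in adult HIP. In adult CB it stood at 1.80 and Cux2 at 4.78. In E17.5 CX the next were Bcl11b at 31.1, Lhx2 at 28.2, Fezf2 at 27.2 and Tbr1 at 22.7, then Cux2 at 17.4, Emx1 at 15.5 and Emx2 at 3.26. In adult CX Tbr1 and Cux2 came next to Neurod6, at 14.9 and 13.2. In adult HIP Bcl11b came next, at 20.4, and Cux2 was last, at 2.26.

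The genes most alike to each of the 8 were ranked by Pearson r of log2 CPM over 51 WT libraries and 15225 genes with a mean of at least 1 CPM. The libraries share 9 groups of region and period, so r describes mostly those. Emx1 was closest to Fezf2, another of the 8 (0.992). Emx2 was closest to Emx2os (0.990) and Nr2e1 (0.977), and Lhx2 to Dlx2 (0.961) and Npas1 (0.960). Tbr1 was closest to Cacnb3 (0.980) and Mpped1 (0.971), Bcl11b to Epha5 (0.969) and Cacna1h (0.965), and Neurod6 to Chd3 (0.959) and Tmem74 (0.958). Cux2 stood farthest from the rest, with Grik3 (0.905) and Fhod3 (0.903) as its closest genes and r of 0.149 to 0.525 with the other 7.

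Of 32 other transcription factors of cortical progenitors and projection neurons, 26 were called higher in CX than in CB at E17.5 and 4 lower, and at P7 and in adults 16 and 17 were higher and 14 and 14 lower, beside 30.3%, 38.8% and 36.5% of all genes higher and 31.3%, 44.1% and 38.9% lower. The medians were 1.83, 0.15 and 0.80. The 8 were chosen as forebrain genes, and both lists with earlier results known, so their medians cannot be compared as a test. Of those called, Otx1 had one of the largest values at E17.5 (6.21). At the other end were Foxp2 (-3.50) and Neurod1 (-2.15) at E17.5, Neurod1 (-5.15) and Pax6 (-5.11) at P7, and Eomes (-6.18) and Neurod1 (-5.20) in adults, which are also known as genes of cerebellar neurons. From P7 to the adult period, 25 of 31 tested fell in CX and 2 rose, 21 of 32 fell in HIP and 6 rose, and 23 of 31 fell in CB and 4 rose. Over all genes 37.0%, 37.5% and 40.2% fell and 35.4%, 36.8% and 39.7% rose in CX, HIP and CB. Etv1 rose in all 3 regions, by 0.51 in CX, 1.11 in HIP and 3.41 in CB, and Rorb by 0.35 in CX and 0.93 in HIP. The value of Rorb in CX was 0.26 to 0.32 and not called without P7 WT replicate 1, 3 or 6 or adult replicate 1 or 2 (adjusted p from 0.11 to 0.119). Nr4a2 rose by 1.54 in CB. The largest falls were those of Eomes (-3.74) and Bhlhe22 (-1.40) in CX, Eomes (-2.74) and Neurod1 (-1.55) in HIP, and Otx1 (-4.99) and Neurog2 (-3.54) in CB. The Eomes value in CX rests largely on P7 WT replicate 1, at 17 CPM against 0.294 to 1.13 in the other 5 libraries, and was -1.49 without it (adjusted p = 0.0185).

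Between mutant and WT mice none of the 8 genes was called in any of the 9 datasets, and for each gene the mutant range overlapped the WT range in all of them. All 8 were tested in CX and HIP, and 5, 5 and 4 in CB at E17.5, P7 and P35, in edgeR's quasi-likelihood test without covariates. In this fit only Cul3 was called among all genes. That is 0.00603%, 0.00566% and 0.00569% of the genes tested in CX, 0.00586%, 0.00563% and 0.00584% in HIP and 0.00568%, 0.00570% and 0.00584% in CB. The study fitted sex and factors of unwanted variation from RUVs, and reported many more genes at the same threshold. The count of called genes therefore depends on the fit. At an unadjusted p under 0.05 there were 277 to 2459 genes per dataset, with 1 of the 8 genes in adult CX, 1 in adult HIP and none in the other 7. DESeq2 also called none of the 8 genes in any dataset. With factors of unwanted variation, upper-quartile scaling and edgeR's likelihood ratio test, 1 of the 8 was called.

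That gene was Lhx2 in adult HIP, the smallest p among the 8 genes in any dataset. The WT libraries held 34.8, 37.6, 40.2, 35.1 and 37.6 CPM and the mutant libraries 39.8, 40.0, 43.2, 41.3 and 41.9. All but 1 of the WT values lay below the mutant range. The choroid plexus score of these HIP libraries was -1.06 to 4.97 in WT and -0.145 to 2.32 in mutant mice, and its part was not tested. The log2 fold change of Lhx2 was 0.15 ± 0.04, with a 95% interval of 0.06 to 0.24 (adjusted p = 0.796, edgeR). With 3 factors of unwanted variation estimated by RUVs it was 0.16 (adjusted p = 0.0563, edgeR likelihood ratio test). That fit also used upper-quartile scaling in place of TMM, and these changes were not tested apart. The adjusted p was 0.421 to 1 under the other settings. In adult CX the smallest p was that of Bcl11b, with 58.7, 74.9, 71.7, 64.0 and 66.2 CPM in WT and 70.1, 73.5, 64.3, 81.7 and 78.0 in mutant mice (0.15 ± 0.07, adjusted p = 0.997). In adult CB it was that of Neurod6 (0.23 ± 0.14, adjusted p = 0.413).

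At P7 the smallest p in CX was that of Neurod6 (0.24 ± 0.13, adjusted p = 0.9), in HIP that of Lhx2 (0.12 ± 0.07, adjusted p = 0.833) and in CB that of Cux2 (0.09 ± 0.08, adjusted p = 0.994), all edgeR. The choroid plexus score in P7 CB was 2.72 higher in mutants on the log2 scale, and its part was not tested. At E17.5 the smallest p in CX was that of Neurod6 (0.08 ± 0.09, adjusted p = 0.991) and in CB that of Lhx2 (0.54 ± 0.54, adjusted p = 0.988). In E17.5 HIP it was that of Tbr1, with a range of 10.9 to 70.7 CPM in WT and 12.4 to 40.6 in mutant mice (-0.68 ± 0.39, 95% interval -1.52 to 0.16, adjusted p = 0.941). Bcl11b there gave -0.48 (interval -1.11 to 0.15). The score of 8 meningeal markers was 1.03 higher and that of 8 neuronal markers 0.30 lower in the mutant E17.5 HIP libraries, and their part was not tested.

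The study stained Tbr1 protein in embryonic cortex at a stage before E17.5 and reported significantly fewer positive cells in mutants. It also named TBR1 in a module of co-expressed proteins in E17.5 cortex that was downregulated in mutants. Cell counts in sections at an earlier age and the level of a protein module are different measures from bulk mRNA. The values here therefore do not test those results. Tbr1 mRNA showed no called difference in the other 5 CX and HIP datasets either. Its log2 fold change was -0.11 in E17.5 CX (interval -0.59 to 0.37), -0.11 in P7 CX (-0.37 to 0.15) and -0.005 in adult CX (-0.14 to 0.13). In HIP it was -0.002 at P7 (-0.23 to 0.23) and 0.02 in adults (-0.12 to 0.16). In adult CX the intervals of all 8 genes lay between -0.24 and 0.30, and in P7 CX between -0.37 and 0.51. At E17.5 they were wider, reaching 0.79 for Emx1 in CX and -1.52 for Tbr1 in HIP, in a fit that leaves the differences between name prefixes in the spread. Emx1 was higher in the mutant of 6 of 6 same-numbered pairs in CX and in HIP, a pattern noticed after the values were seen, and same-numbered embryos share a prefix. With the replicate number as a block its value was 0.15 in CX (interval 0.06 to 0.25, adjusted p = 0.19, edgeR) and 0.27 in HIP (0.15 to 0.39, adjusted p = 0.34). With the prefix as a block it was 0.15 in CX (-0.02 to 0.33, adjusted p = 0.638, edgeR) and 0.28 in HIP (0.09 to 0.46, adjusted p = 0.502). None of these values was called, and the interval of the prefix block in CX included 0. Of the 32 other transcription factors none was called in any dataset. In 8 of the 9 datasets the genes with the smallest p were Zbtb20 (-0.26) and Sox5 (0.17) in CX and CB at E17.5, Eomes (-1.77), Zfpm2 (0.28) and Ldb2 (0.34) in CX, HIP and CB at P7, and Zfpm2 (0.19), Pou3f3 (0.12) and Neurog2 (0.89) in adults, with adjusted p from 0.318 to 0.997. Without WT replicate 1 the value of Eomes turned to 0.50 (adjusted p = 0.893).

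**Figure D5:**
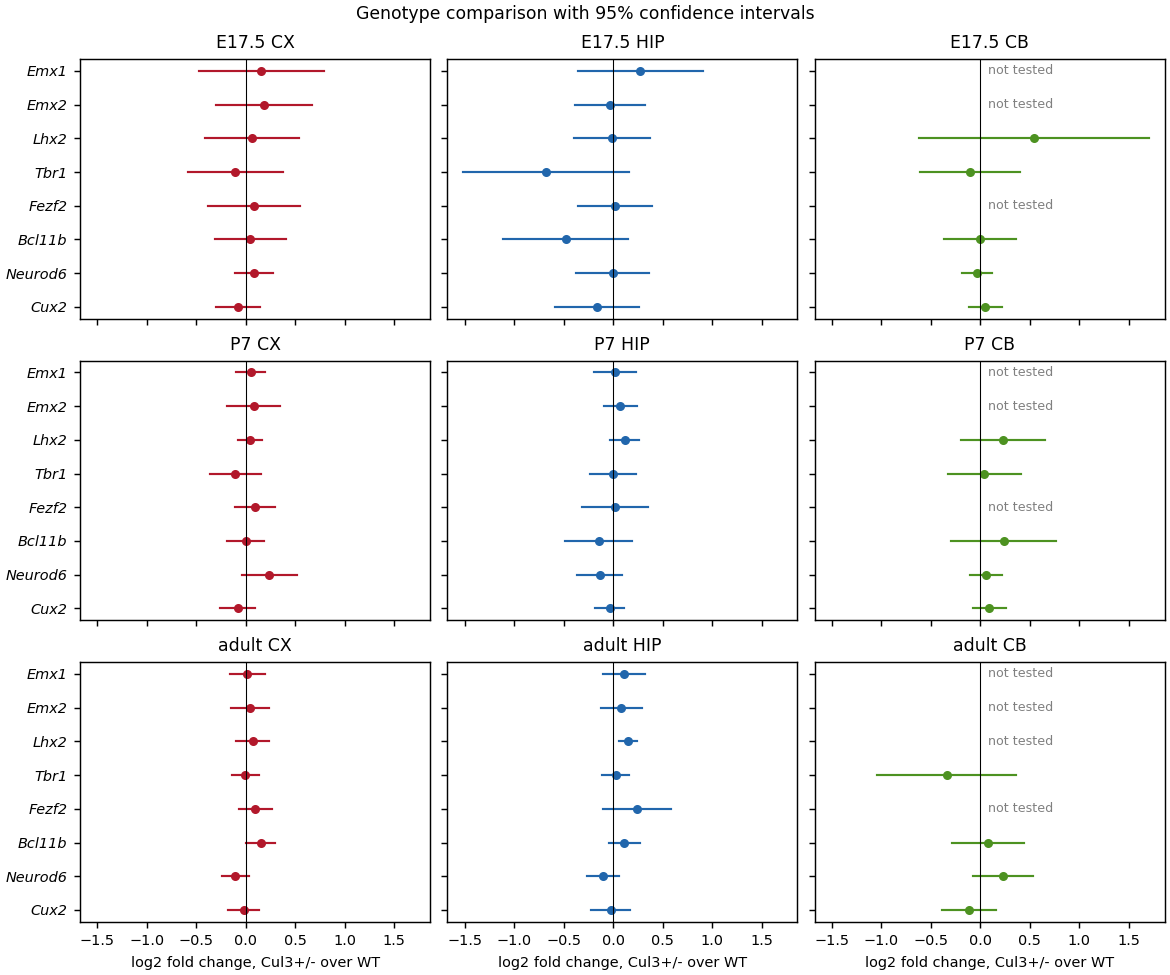
Log2 fold change of Cul3+/- over WT for each of the 8 genes in the 9 datasets, with points for the estimate and lines for the 95% confidence interval. All intervals include 0 except Bcl11b in adult CX (0.002 to 0.30) and Lhx2 in adult HIP (0.06 to 0.24), and genes too low to test are marked.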

How the data were processed

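Total RNA libraries (stranded, ribosomal RNA depleted) were made from CX, HIP and CB of WT and Cul3+/- mice. The authors made the deposited expected counts, without normalization, with Cutadapt 1.14, STAR 2.5.3a on GRCm38.p5 and RSEM 1.3, and 5.76% of the values were not whole. After rounding, edgeR 4.0.16 under R 4.3.3 was used (filterByExpr with minimum count 10 and minimum total 15 on the groups compared, TMM, quasi-likelihood test over all genes, Benjamini-Hochberg threshold 0.1), and the scripts were tested on simulated data. The genotype contrast had no covariates, contrasts of regions in WT mice had mouse as a block, and contrasts of periods had none. The SE is the log2 fold change over the square root of F, and log2 CPM used a prior count of 2. Groups came from the labels, and 6 libraries of 2 adult mice with conflicting genotypes were left out. Symbols matched 99.6% of IDs.

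The members and lists were chosen with earlier results of these data known. All 8 members are named, with the member of smallest p in each genotype dataset, Tbr1 in CX and HIP, and by size or p the genes of the list of 32 in 3 of the comparisons. Some genes that these rules name are not reported here. Mean chi-square per degree of freedom between replicates was 5.73 to 161 over 240 pairs, so none was a repeated library. Same-numbered WT and mutant replicates deviated together in every pair (r above 0.1) only in E17.5 CX, at 0.113 to 0.757, where the fit with that pairing as a block called 55 genes and 0 members. Alternatives were DESeq2 1.42.0, upper-quartile scaling, keeping genes of low count, blocks, RUVs with 3 factors, log2 CPM of Xist as a covariate, mutant in place of WT mice, all adult libraries, and each library or mouse left out. The RUVs fits used upper-quartile scaling and edgeR's likelihood ratio test in place of TMM and the quasi-likelihood test.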

Additional observations from a re-analysis of the deposited data

Results flagged for a closer look

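In 4 of 123 combinations of gene and group, 1 library lay farther from the rest than Dixon's 95% value allows, where chance gives about 1 in 20. Tbr1 in P7 WT CX replicate 4 was 92.2 CPM against 54.1 to 65.1 in the other 5 libraries. That library also held the lowest Neurod6 (141.4) and the highest Cux2 (138.9) of its group. Neurod6 in P7 mutant CX replicate 3 was 176 CPM against 232 to 248. Fezf2 in adult mutant CX replicate 4 was 33.3 CPM against 26.7 to 28.4, and Cux2 in P7 mutant CB replicate 1 was 25.2 CPM against 31.1 to 34.5.

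The change over time differed between CX and HIP in the test of that difference for 4 genes from E17.5 to P7. On the log2 scale it was 0.98 for Emx1, 0.34 for Lhx2, -1.64 for Neurod6 and -1.56 for Bcl11b. From P7 to the adult period it differed for 6 genes, at 1.21 for Emx2, 0.86 for Cux2, 0.67 for Tbr1, 0.45 for Emx1, -0.74 for Bcl11b and -0.59 for Neurod6.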

How the results depend on the processing

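The calls of the 8 genes between mutant and WT mice stayed at 0 in all 9 datasets under every setting run, except RUVs with 3 factors, which called 1 member in P35 HIP. Counts over all genes moved more from the 1 called. DESeq2 called 2 in E17.5 CB, 218 in P35 CB, 4 in P35 CX, 3 in P35 HIP, 3 in P7 CB, 3 in P7 CX and 6 in P7 HIP. RUVs called 11 in E17.5 CB, 58 in E17.5 HIP, 63 in P35 CB, 33 in P35 CX, 188 in P35 HIP, 65 in P7 CB, 14 in P7 CX and 140 in P7 HIP. A replicate block called 55 in E17.5 CX, 0 in P35 CB and 2 in P35 CX. All adult libraries with the genotypes of the labels gave 2 in P35 CB and in P35 CX, and no low-count filter gave 2 in P35 CX. The cause was not tested. With 1 library left out, the count was 1 to 2 in E17.5 CX, P35 HIP and P7 HIP, 1 to 4 in P7 CB (4 without HET replicate 3) and 1 to 6 in P35 CB (6 without HET replicate 2). It was 2 without HET replicate 1 or 4 in E17.5 CX, HET replicate 5 in P35 CB, HET replicate 5 or WT replicate 3 in P35 HIP, and WT replicate 2 in P7 HIP.

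Signs turned only for values that were not called. In mutant mice Bcl11b gave 0.11 in HIP from P7 to P35, Cux2 gave -0.03 for HIP over CB at P7, and Emx2 gave -0.09 for the CX minus HIP change to P7. RUVs gave -0.05 for Lhx2 in E17.5 CB and 0.04 for Tbr1 in E17.5 CX. All adult libraries gave 0.02 for Tbr1 in P35 CX. Tbr1 in P7 HIP was 0 with a block by name prefix or replicate, 0.02 with RUVs and 0.01 with upper-quartile normalization. With 1 library or mouse left out, Tbr1 between genotypes ran from -0.24 to 0.14 in E17.5 CX, -0.15 to 0.02 in P7 CX, -0.05 to 0.02 in P35 CX, -0.07 to 0.08 in P7 HIP and -0.01 to 0.07 in P35 HIP. The CX minus HIP change ran from -0.56 to 0.11 for Tbr1 and -0.01 to 0.17 for Emx2 to P7, and from -0.19 to 0.02 for Fezf2 to P35. The level of Lhx2 in adult mutant CX was 37 CPM with DESeq2 size factors and 37.1 with upper-quartile normalization. Neither changed a call.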
